A study of Mus musculus with 6 samples.

Results

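The organic anion, organic cation and drug transporters were followed across whole kidneys of wild type mice and of R26NICD2/+Kspcre mice at postnatal day 3. Members were taken by gene symbol: the SLC22 family, the SLC47 family, the SLCO family and subfamilies B, C and G of the ATP-binding cassette transporters. These families were chosen with earlier results of these data known. Of 67 matching symbols, 64 had a measured expression value, out of 19659 genes with values in the table. Slc22a16, Slco6c1 and Slco6d1 had no value.

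RNA was sequenced from 3 wild type samples and 3 R26NICD2/+Kspcre samples, called NICD2 here. The NICD2 genotype joins 1 copy of a Rosa26 allele for the intracellular domain of Notch2 with Kspcre, and the controls are labelled wild type. In Kspcre mice the promoter of kidney-specific cadherin (Cdh16) drives Cre recombinase in renal tubule epithelium. Values are FPKM, fragment numbers that the authors normalised to transcript length and sequencing depth. Whether the replicates were separate animals is not stated in the labels, and p-values cover no more than the spread among the replicates, part of which may be technical.

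These transporters carry drugs, toxins and metabolites across the wall of the renal tubule. Organic anion transporters on the blood side of the proximal tubule cell exchange anions such as urate and diuretics for dicarboxylates, and organic cation transporters let positively charged compounds in along the membrane potential. On the urine side, MATE antiporters and ABC efflux pumps complete secretion, the latter at the cost of ATP. Many of the genes are immature at birth and rise in level as the proximal tubule matures after it. Some relatives by sequence do other work, including sterol export, transport in mitochondria, and, in the sulfonylurea receptors, gating of potassium channels.

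Depth was estimated at 16150000 to 16950000 fragments a library, and each library had 13568 to 13784 genes at 1 FPKM or more. The table's row named Notch2_human read 0, 0.03 and 0.03 FPKM in wild type replicates 1, 2 and 3 and 75.44, 79.59 and 60.17 FPKM in NICD2 replicates 1, 2 and 3, so it separated the groups as labelled. Libraries stood apart in several ways that the groups do not explain. Erythroid markers summed to 6106 FPKM in wild type replicate 1 and to 2281 to 3711 FPKM in the other 5 libraries. The summed level of 5 adrenal cortex markers was 110 to 113 FPKM in wild type replicates 1 and 2 and NICD2 replicates 2 and 3, against 3.99 FPKM in wild type replicate 3 and 1.99 FPKM in NICD2 replicate 1. Uty, Kdm5d, Eif2s3y and Ddx3y, all on the Y chromosome, were at 0 FPKM in NICD2 replicate 3 and were expressed in the other 5 libraries. Among kidney cell types, 3 of 19 tested proximal tubule markers were lower in NICD2 and 0 were higher, and their summed level was 2781 to 2889 FPKM in wild type and 2095 to 2486 FPKM in NICD2. The 3 lower markers were Ttc36, Slc34a1 and Kap, and Kap alone averaged 1092 FPKM in wild type and 709 FPKM in NICD2. Over the 19 tested, the median log2 fold change was -0.07 and 11 were negative, so this sum does not describe each marker. Markers of intercalated cells were lower in 6 of 7 tested and those of principal cells in 5 of 6, with none at 0 in every library. Thick ascending limb markers were higher in 2 of 5 tested and lower in 1, with sums of 262 to 297 FPKM in wild type and 433 to 539 FPKM in NICD2. Their median log2 fold change was -0.27, with 3 of the 5 negative, so the sum does not describe each marker. Smooth muscle and pericyte markers were higher in 1 of 5, with sums of 433 to 521 FPKM and 543 to 793 FPKM, and podocyte markers were lower in 4 of 5, with sums of 305 to 342 FPKM and 226 to 239 FPKM. By the test described below, 3.86% of all genes tested were lower in NICD2 and 4.93% were higher. In whole kidney, fewer cells of a type and less RNA per cell cannot be told apart.

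Transporter levels spanned several orders of magnitude in the newborn kidney. Averaged over all 6 libraries, 8 of the 64 genes reached 20 FPKM, 19 lay from 5 to 20 FPKM, 14 from 1 to 5 FPKM and 23 under 1 FPKM. The 6 highest genes, among them Slc22a8, Abcg2 and Slc47a1, made up 42% of the summed FPKM of the family members. The sum over all 64 genes was 508.9 ± 23.0 FPKM (SD, n = 3) in wild type and 484.4 ± 12.7 FPKM (SD, n = 3) in NICD2, and the libraries of both groups overlapped.

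**Figure D1:**
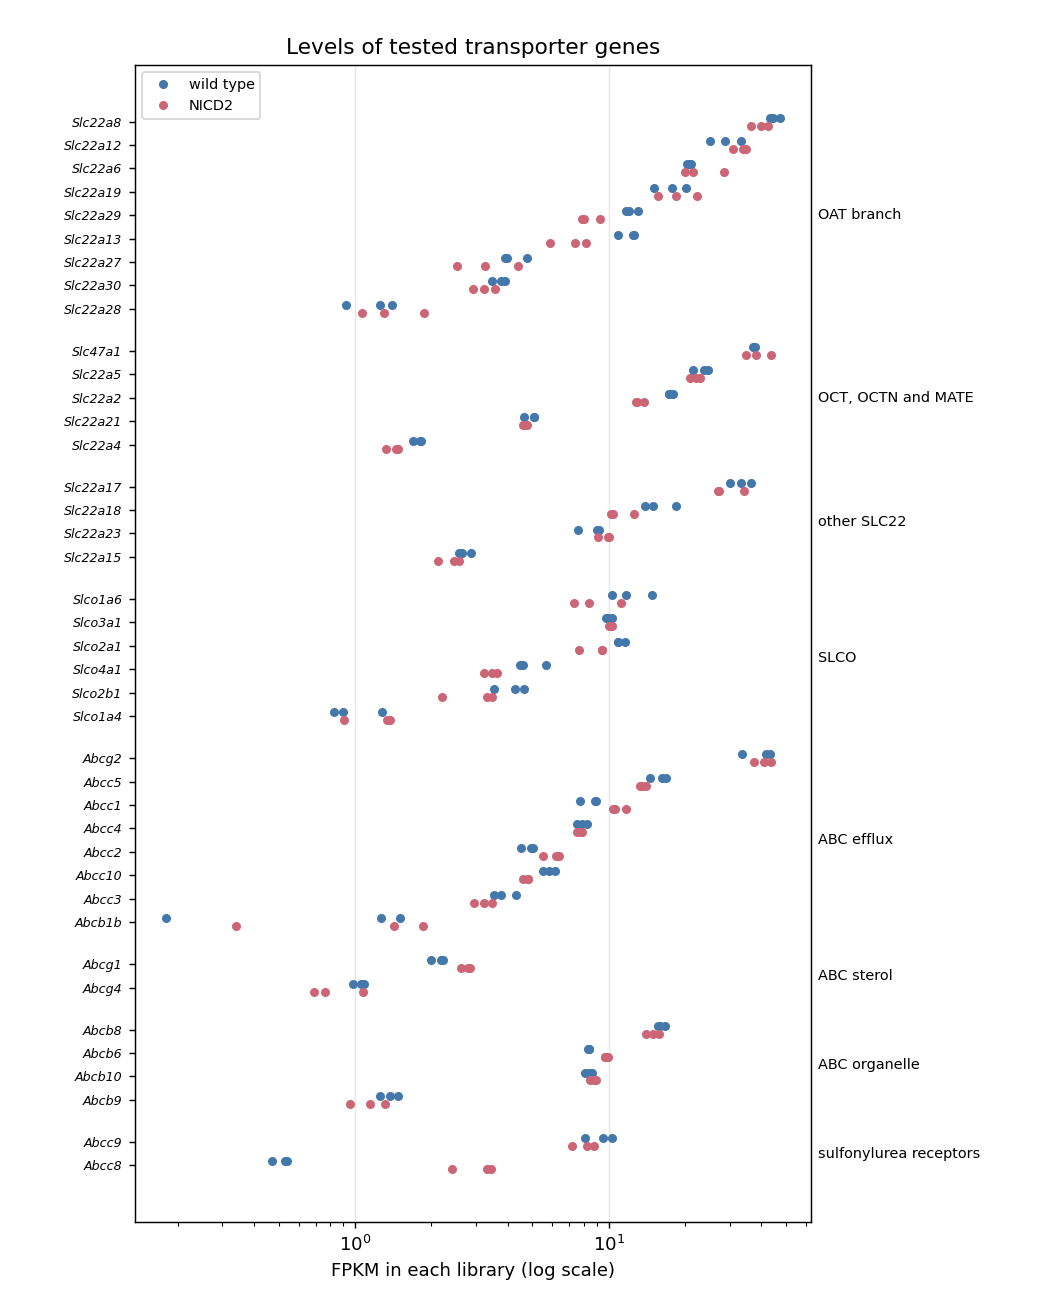
FPKM on a log scale in each of the 6 libraries for 40 of the tested transporter genes, grouped by role, with 1 point per library. Most genes show overlapping groups, while Abcc8 lies between 0.47 and 0.54 FPKM in wild type and between 2.41 and 3.43 FPKM in NICD2.

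Most of the transporter genes did not pass the test between genotypes, and those that did were mainly lower in NICD2. Of the 64 genes, 42 had at least 1 FPKM in at least 3 libraries and were tested with limma on log2(FPKM + 1). Fold changes are on this scale throughout, NICD2 minus wild type, with their standard error, and understate the change of low genes. At a Benjamini-Hochberg adjusted p under 0.05 over all 13765 genes tested, Abcc8 and Abcc1 were higher and Slc22a13, Slc22a29, Slc22a18, Slco4a1 and Slc22a2 were lower. These 7 of 42 stand beside 8.79% of all genes tested. In the lower direction, 5 of 42 stand beside 3.86%, and in the higher direction 2 of 42 stand beside 4.93%. The same shares of all genes stand beside the counts of calls given below for each role. At an unadjusted limma p under 0.05, 16 of the 42 passed, beside 25.1% of all genes tested. Of these, 5 were higher, beside 12.4%, and 11 were lower, beside 12.6%. The median log2 fold change of the 42 was -0.09, against -0.01 for all genes tested. The groups did not overlap for 17 of the 42, beside 30.5% of all genes tested. In NICD2, 5 of them were higher, beside 15.0% of all genes, and 12 were lower, beside 15.5%. Abcc8 entered the test only through its NICD2 libraries, so it had to differ to be tested at all.

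**Figure D2:**
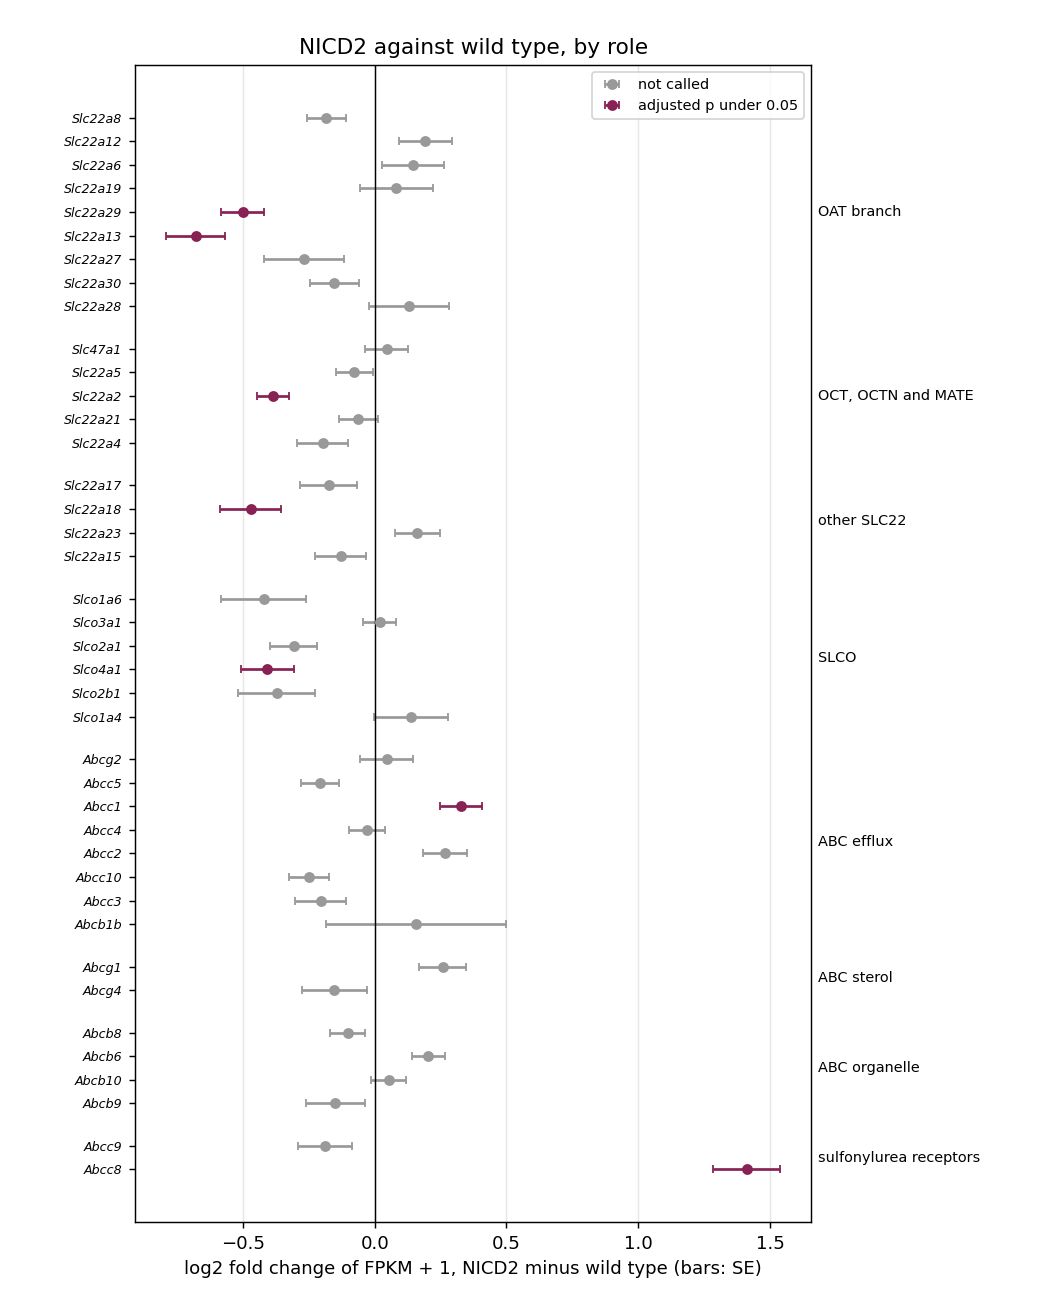
Log2 fold change of FPKM + 1, NICD2 minus wild type, for 40 of the tested transporter genes by role, with bars for the standard error of the limma fit. Abcc8 stands at 1.41 and Slc22a13 at -0.68, and 33 of the 40 genes drawn were not called.

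The leading organic anion transporters of the proximal tubule did not pass the test, while a pair of less studied relatives were lower in NICD2. Of 13 genes of this branch, 9 were tested, with 2 lower, 0 higher and a median log2 fold change of -0.15. Slc22a13, the transporter OAT10 that handles urate and nicotinate, lies on chromosome 9 at 119189784 to 119209105. It read 12.63, 12.45 and 10.86 FPKM in the wild type libraries and 5.90, 7.35 and 8.18 FPKM in the NICD2 libraries. Every NICD2 library lay below every wild type library, and the log2 fold change was -0.68 ± 0.11 (limma adjusted p = 0.00784). Slc22a29, a member of a rodent cluster of anion transporters on chromosome 19 (8160168 to 8253522), read 11.68, 13 and 11.99 FPKM in wild type and 7.87, 7.98 and 9.23 FPKM in NICD2. The groups did not overlap here either, with a log2 fold change of -0.50 ± 0.08 (limma adjusted p = 0.00714). Both genes share transcript sequence with relatives. Of the 50-base stretches of Slc22a13, 36.0% also occur in the pseudogene Slc22a13b-ps, and 24.4% of those of Slc22a29 occur in Slc22a27, so reads could be split between them. In the deposited positions, Slc22a27 runs from 7864388 to 8257394 on the same strand, a span that contains Slc22a29. Slc22a29 lost its call with the 4 libraries that held adrenal transcripts alone (adjusted p = 0.0597).

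Slc22a8, or OAT3, the main basolateral entry route for many anionic drugs, had the highest level of the 64 genes. It read 44.61, 47.57 and 43.16 FPKM in wild type and 39.92, 36.40 and 42.55 FPKM in NICD2. The NICD2 libraries all lay below the wild type ones, but the difference did not pass the test (log2 fold change -0.18 ± 0.07, limma adjusted p = 0.163). Slc22a6, or OAT1, its basolateral partner, read 20.36, 21.20 and 20.82 FPKM in wild type and 28.53, 21.5 and 20.04 FPKM in NICD2. NICD2 replicate 1 stood above the other 5 libraries, and without it the log2 fold change of 0.14 ± 0.12 went to -0.0022. Slc22a12, the apical urate exchanger URAT1, read 28.68, 33.19 and 25.15 FPKM in wild type and 33.95, 34.65 and 30.79 FPKM in NICD2, with overlapping groups (0.19 ± 0.10, limma adjusted p = 0.273). Its exons overlap those of Nrxn2 on the opposite strand over 682 bases. Slc22a19 read 15.03, 20.11 and 17.74 FPKM in wild type and 18.41, 15.59 and 22.35 FPKM in NICD2, also with overlap (0.08 ± 0.14, limma adjusted p = 0.761).

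Slc22a27, Slc22a30 and Slc22a28, further members of the chromosome 19 cluster, had wild type means of 4.22, 3.72 and 1.19 FPKM and NICD2 means of 3.39, 3.25 and 1.41 FPKM, with adjusted p from 0.313 to 0.646. Of the 50-base stretches of Slc22a28, 53.3% also occur in Slc22a30, and 32.0% of those of Slc22a30 occur in Slc22a28. For Slc22a27, 25.8% occur in Slc22a29, so reads could be split among these genes too. The remaining 4 anion transporters were too low to test. Slc22a7, or OAT2, a liver and kidney transporter, read 0.33, 0.44 and 0.22 FPKM in wild type and 0.16, 0.10 and 0.16 FPKM in NICD2. Slc22a22, a prostaglandin-specific transporter, read 0.58, 0.72 and 0.72 FPKM in wild type and 1.17, 0.80 and 1.38 FPKM in NICD2. In both the groups did not overlap, in opposite directions. Estimated fragments a library were 3 to 14 for Slc22a7 and 21 to 52 for Slc22a22. Slc22a26 averaged 0.11 FPKM in wild type and 0.10 FPKM in NICD2, and Slc22a20 was listed at 0 in all libraries but NICD2 replicate 1, at 0.07 FPKM. Summed over the branch, the FPKM were 147.0 ± 10.4 (SD, n = 3) in wild type and 139.8 ± 7.67 (SD, n = 3) in NICD2.

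Promoter windows of 4 anion transporters are shown because the first 2 genes are the main uptake routes that were not called and the last 2 are those called lower. Each holds 250 bases before to 50 bases after the annotated start, 5′ to 3′ on the gene's strand, from RefSeq on GRCm38.p6. The windows are chr19:8617746-8618045 (+) for Slc22a6, chr19:8592932-8593231 (+) for Slc22a8, chr19:8218851-8219150 (-) for Slc22a29 and chr9:119209056-119209355 (-) for Slc22a13. Those of Slc22a8 and Slc22a29 lie inside the deposited spans of these genes, so the start differs between the 2 sources. Capitals mark a pair of motifs searched on both strands: CAAAGT, a core of the site of HNF4, and TGGGAA, the core of the site of RBPJ, the DNA-binding partner of the Notch intracellular domain.
Slc22a6: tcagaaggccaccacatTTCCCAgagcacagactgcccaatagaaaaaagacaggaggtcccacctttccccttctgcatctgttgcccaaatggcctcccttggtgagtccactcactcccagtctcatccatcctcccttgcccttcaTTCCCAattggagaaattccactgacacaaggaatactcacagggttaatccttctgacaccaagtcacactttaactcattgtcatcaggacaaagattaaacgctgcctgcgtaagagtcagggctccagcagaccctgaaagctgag
Slc22a8: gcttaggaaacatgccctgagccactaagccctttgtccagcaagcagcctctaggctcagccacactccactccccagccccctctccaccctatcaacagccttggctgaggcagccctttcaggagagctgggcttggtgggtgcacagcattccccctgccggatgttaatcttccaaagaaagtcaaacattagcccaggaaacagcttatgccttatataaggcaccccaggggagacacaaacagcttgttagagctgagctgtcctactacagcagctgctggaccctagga
Slc22a29: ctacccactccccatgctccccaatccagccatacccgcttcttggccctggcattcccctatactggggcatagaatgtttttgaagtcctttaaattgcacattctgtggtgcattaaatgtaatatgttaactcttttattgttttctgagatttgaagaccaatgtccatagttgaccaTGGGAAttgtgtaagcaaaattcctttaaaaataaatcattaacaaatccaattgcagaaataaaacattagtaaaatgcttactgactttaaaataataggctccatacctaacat
Slc22a13: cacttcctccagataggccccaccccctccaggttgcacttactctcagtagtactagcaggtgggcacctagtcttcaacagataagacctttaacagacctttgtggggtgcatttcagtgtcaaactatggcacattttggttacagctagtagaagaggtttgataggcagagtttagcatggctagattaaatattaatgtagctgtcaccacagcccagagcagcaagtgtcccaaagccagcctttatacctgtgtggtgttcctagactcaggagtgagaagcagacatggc
TGGGAA stood at -67 from the start in Slc22a29 and, on the opposite strand, at -233 and -100 in Slc22a6. Slc22a8 and Slc22a13 held neither motif in these windows. Over 60 windows of the 50 members with a window, CAAAGT was in 21.7%, against 14.4% of 32851 windows of the same length. TGGGAA was in 25.0% of the member windows and 25.6% of all. Of the 5 genes called lower, 0 held CAAAGT and 2 held TGGGAA. A match is a description of letters and not a site.

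Among cation and carnitine transporters, Slc22a2 alone of 6 tested genes was called, and it was lower in NICD2. Slc22a2, or OCT2, the basolateral entry route for cationic drugs such as metformin, lies on chromosome 17 at 12583958 to 12628488. It read 17.27, 17.30 and 17.96 FPKM in wild type and 12.96, 12.78 and 13.76 FPKM in NICD2. The libraries of each group lay close together and the groups were well apart, with a log2 fold change of -0.39 ± 0.06 (limma adjusted p = 0.00676). The call was lost with the 4 libraries that held adrenal transcripts alone (adjusted p = 0.0810).

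Slc47a1, or MATE1, which passes cations on into the urine, read 37.24, 37.59 and 37.52 FPKM in wild type and 43.53, 34.89 and 38.07 FPKM in NICD2. Its NICD2 libraries lay on both sides of the wild type ones (0.05 ± 0.08, limma adjusted p = 0.778). Slc22a5, the carnitine transporter OCTN2, read 23.76, 24.56 and 21.50 FPKM in wild type and 22.13, 20.93 and 22.91 FPKM in NICD2 (-0.08 ± 0.07, limma adjusted p = 0.551). Slc22a21, a carnitine transporter next to it that shares 23.8% of its 50-base stretches with Slc22a5, read 5.08, 4.63 and 5.06 FPKM in wild type and 4.60, 4.66 and 4.76 FPKM in NICD2. The groups of both genes overlapped. Slc22a4, or OCTN1, the ergothioneine transporter, averaged 1.77 FPKM in wild type and 1.42 FPKM in NICD2, without overlap but not called (adjusted p = 0.247). Slc22a3 and Slc47a2 stayed under 1 FPKM in every library and were not tested. The groups of Slc22a3 overlapped. Those of Slc47a2 did not, at means of 0.08 FPKM in wild type and 0.18 FPKM in NICD2 and an estimated 2 to 8 fragments a library.

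Of the other SLC22 genes, Slc22a18 was called lower among 4 tested. Slc22a18, an imprinted gene on chromosome 7 (143473726 to 143499334) whose substrates are poorly defined, read 18.41, 14.96 and 13.93 FPKM in wild type and 10.19, 12.59 and 10.43 FPKM in NICD2. The groups did not overlap, with a log2 fold change of -0.47 ± 0.11 (limma adjusted p = 0.0398). Leaving out wild type replicate 1, wild type replicate 2, NICD2 replicate 1 or NICD2 replicate 3 ended the call (adjusted p up to 0.119), as did testing genes without a filter (0.0875) and using the libraries with adrenal transcripts alone (0.0965). Slc22a17, a receptor for lipocalin 2, read 36.54, 33.18 and 30.02 FPKM in wild type and 27.19, 34.17 and 26.91 FPKM in NICD2, and NICD2 replicate 2 lay within the wild type range (-0.17 ± 0.11, limma adjusted p = 0.353). Slc22a23 read 7.59, 9.16 and 9.02 FPKM in wild type and 9.11, 10.08 and 9.94 FPKM in NICD2 (0.16 ± 0.09, limma adjusted p = 0.286). Slc22a15 read 2.64, 2.58 and 2.88 FPKM in wild type and 2.58, 2.46 and 2.12 FPKM in NICD2. Neither of the last 2 genes separated the groups.

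The SLCO family, carriers of bile acids, hormones and prostaglandins, had the most negative median log2 fold change of the roles with 4 or more genes tested, at -0.34, although 1 of its 6 tested genes was called. Slco4a1, a thyroid hormone carrier on chromosome 2 (180456250 to 180474853), read 5.69, 4.49 and 4.58 FPKM in wild type and 3.64, 3.46 and 3.24 FPKM in NICD2. The groups did not overlap, with a log2 fold change of -0.41 ± 0.10 (limma adjusted p = 0.0408). Its call was lost in each of the 6 fits without 1 library, with adjusted p from 0.0685 to 0.106. It was also lost with no filter (0.0885), with a term for adrenal transcripts (0.0536) and with the libraries that held them alone (0.103). Slco2a1, the prostaglandin carrier, read 10.91, 11.59 and 10.86 FPKM in wild type and 7.65, 9.45 and 9.39 FPKM in NICD2. It was not called (-0.31 ± 0.09, limma adjusted p = 0.0691) but passed with a term for adrenal transcripts (adjusted p = 0.0487). Endothelial markers, from vessels where this carrier is also known, summed to 352 to 395 FPKM in wild type and 312 to 325 FPKM in NICD2, and 2 of 7 were called lower. Their part in the result was not tested.

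Slco1a6, a kidney carrier of organic anions, read 10.29, 14.89 and 11.71 FPKM in wild type and 8.38, 7.30 and 11.21 FPKM in NICD2. NICD2 replicate 3 lay within the wild type range (-0.42 ± 0.16, limma adjusted p = 0.148). Slco2b1 read 4.26, 4.65 and 3.52 FPKM in wild type and 3.32, 2.20 and 3.48 FPKM in NICD2, and the groups lay just apart (-0.37 ± 0.15, limma adjusted p = 0.154). Slco3a1, a broadly expressed carrier, read 9.75, 10.32 and 9.95 FPKM in wild type and 10.07, 10.28 and 10.09 FPKM in NICD2 and was nearly level (0.02 ± 0.06, limma adjusted p = 0.893). Slco1a4 averaged 1.00 FPKM in wild type and 1.21 FPKM in NICD2. The other 6 SLCO genes stayed under 1 FPKM. Slco4c1, a basolateral digoxin carrier, was the highest of them, at 0.70 FPKM in wild type and 0.53 FPKM in NICD2. The summed FPKM of the SLCO genes was 44.7 ± 3.03 (SD, n = 3) in wild type and 36.6 ± 2.73 (SD, n = 3) in NICD2, with no overlap between libraries.

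ABC efflux pumps were called in 1 of 8 tested genes and had a median log2 fold change of 0.01. Abcc1, or MRP1, a basolateral exporter of glutathione conjugates on chromosome 16 (14361512 to 14474879), read 7.74, 8.80 and 8.88 FPKM in wild type and 10.59, 11.68 and 10.42 FPKM in NICD2. Every NICD2 library lay above every wild type library, with a log2 fold change of 0.33 ± 0.08 (limma adjusted p = 0.0383). The call was lost in each of the 6 fits without 1 library, with adjusted p from 0.0637 to 0.117. It was also lost with no filter (0.0732), with a term for adrenal transcripts (0.0512) and with the libraries that held them alone (0.115). Abcg2, or BCRP, an apical pump of urate and drugs, read 33.68, 43.09 and 41.55 FPKM in wild type and 40.91, 37.31 and 43.60 FPKM in NICD2, with overlapping groups (0.05 ± 0.10, limma adjusted p = 0.822). Abcc5, a pump of cyclic nucleotides, read 16.24, 16.86 and 14.50 FPKM in wild type and 13.49, 13.25 and 14.02 FPKM in NICD2, without overlap and not called (-0.21 ± 0.07, limma adjusted p = 0.118).

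Abcc4, or MRP4, the apical partner of the organic anion transporters, read 7.53, 8.22 and 7.86 FPKM in wild type and 7.83, 7.48 and 7.75 FPKM in NICD2 (-0.03 ± 0.07, limma adjusted p = 0.834). Abcc2, or MRP2, the apical pump of glucuronide and glutathione conjugates, read 4.53, 4.94 and 5.05 FPKM in wild type and 6.23, 5.50 and 6.38 FPKM in NICD2. Abcc4 was level between groups, whereas Abcc2 did not overlap but missed the threshold (0.27 ± 0.08, limma adjusted p = 0.0880). Abcc10 and Abcc3 averaged 5.82 and 3.87 FPKM in wild type and 4.73 and 3.22 FPKM in NICD2, both without overlap and not called, with adjusted p of 0.0798 and 0.234. The 7 untested pumps stayed under 1 FPKM. Abcc6 read 0.55, 0.95 and 0.54 FPKM in wild type and 0.34, 0.41 and 0.41 FPKM in NICD2, with no overlap, at an estimated 42 to 116 fragments a library. Abcb11, the bile salt export pump of liver, was listed at 0 in 5 libraries and at 0.01 FPKM in wild type replicate 3.

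Abcb1b, a P-glycoprotein gene that in mice is strongly expressed in the adrenal gland, varied more within each genotype than between genotypes. It read 1.27, 1.5 and 0.18 FPKM in wild type and 0.34, 1.42 and 1.86 FPKM in NICD2. Its low libraries, wild type replicate 3 and NICD2 replicate 1, are the same as those with low adrenal cortex markers. The log2 fold change was 0.16 ± 0.34 (limma adjusted p = 0.822), and a term for adrenal transcripts narrowed the standard error to 0.12 (limma adjusted p = 0.481). Abcb1a, the other P-glycoprotein gene, read 0.20 to 0.34 FPKM in all 6 libraries, and 18% of the 50-base stretches of Abcb1b also occur in it. Abcb1b was singled out after its values were seen.

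**Figure D3:**
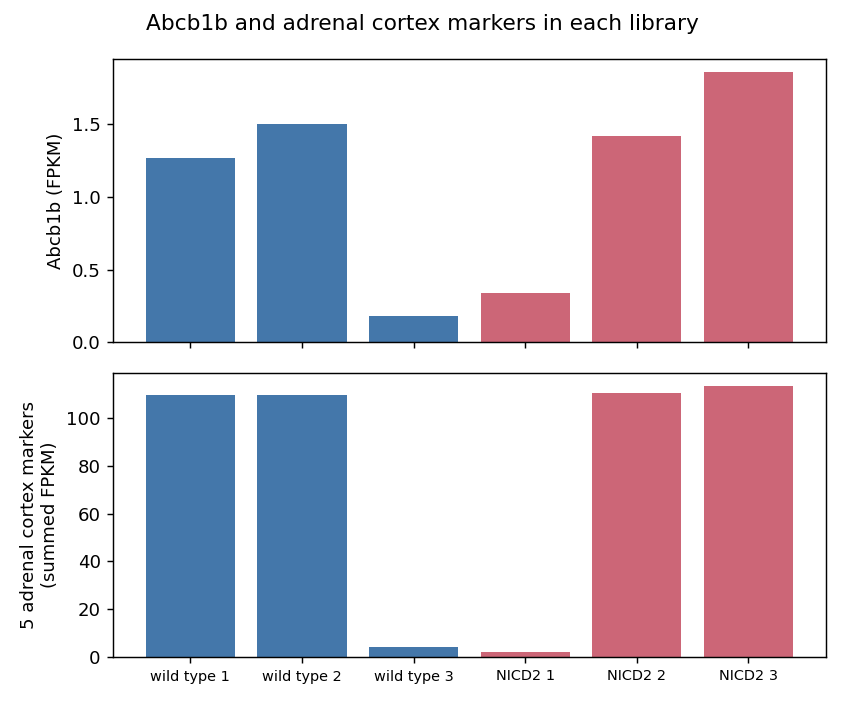
FPKM of Abcb1b (upper bars) and summed FPKM of 5 adrenal cortex markers (lower bars) in each of the 6 libraries, 3 wild type and 3 NICD2. Both are low in wild type replicate 3 and NICD2 replicate 1, at 0.18 and 0.34 FPKM for Abcb1b.

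Sterol and organelle ABC transporters gave 0 calls with limma among 7 tested genes, beside 8.79% of all genes tested. Abcg1 and Abcb6 had an unadjusted limma p under 0.05, beside 25.1% of all genes tested. Abcg1, an exporter of cholesterol to lipoproteins, read 2.0, 2.18 and 2.23 FPKM in wild type and 2.62, 2.85 and 2.79 FPKM in NICD2, without overlap (0.26 ± 0.09, limma adjusted p = 0.112). Abcg4 read 1.09, 1.06 and 0.98 FPKM in wild type and 0.69, 0.76 and 1.08 FPKM in NICD2, with overlap (-0.15 ± 0.12, limma adjusted p = 0.490). Abcg5 and Abcg8, the paired sterol exporters of liver and gut, were not tested, at means of 0.92 and 0.32 FPKM in wild type and 0.75 and 0.24 FPKM in NICD2. Of the organelle genes, Abcb6, linked to porphyrin handling, read 8.30, 8.37 and 8.40 FPKM in wild type and 9.70, 9.98 and 9.64 FPKM in NICD2. The groups were tight and apart, but the change was small and not called (0.20 ± 0.06, limma adjusted p = 0.0847), and 90.3% of its 50-base stretches also occur in the overlapping transcript Gm29253. Abcb8 read 15.62, 16.63 and 15.98 FPKM in wild type and 14.00, 15.84 and 14.90 FPKM in NICD2. Abcb10, a mitochondrial transporter of heme biosynthesis, read 8.07, 8.60 and 8.39 FPKM in wild type and 8.76, 8.92 and 8.42 FPKM in NICD2. The groups of Abcb8 and Abcb10 overlapped, with adjusted p of 0.395 and 0.676, as did those of the lysosomal Abcb9 (1.37 and 1.14 FPKM).

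The largest change among the 42 tested genes was that of Abcc8, which encodes the sulfonylurea receptor SUR1, a regulatory subunit of ATP-sensitive potassium channels best known from the pancreatic beta cell. Abcc8 lies on chromosome 7 at 46104523 to 46180039. It read 0.47, 0.54 and 0.53 FPKM in wild type and 3.43, 3.33 and 2.41 FPKM in NICD2. The wild type libraries were low and close together and all 3 NICD2 libraries were several times higher, a ratio of means of 5.95. The log2 fold change was 1.41 ± 0.13 (limma adjusted p = 0.00033), and no fit without 1 library raised the adjusted p above 0.00291. The wild type libraries of Abcc8 were all under 1 FPKM, so it passed the filter through NICD2 alone. The fits without 1 library kept that filter, so none of these p-values is free of this selection. Abcc9, which encodes the other sulfonylurea receptor SUR2, read 8.08, 10.28 and 9.49 FPKM in wild type and 7.15, 8.19 and 8.72 FPKM in NICD2, with overlap (-0.19 ± 0.10, limma adjusted p = 0.301).

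The channel pore genes were looked up after the values of Abcc8 were seen. Kcnj11, which encodes the pore subunit that pairs with SUR1 and lies beside Abcc8 on chromosome 7 (46097123 to 46100867), read 0.91, 0.74 and 0.67 FPKM in wild type and 2.20, 2.02 and 1.72 FPKM in NICD2. It was higher in every NICD2 library and, like Abcc8, entered the test only through them, with a log2 fold change of 0.75 ± 0.12 (limma adjusted p = 0.00569), and lost its call with the 4 libraries that held adrenal transcripts alone (adjusted p = 0.0601). Kcnj8, the pore subunit that pairs with SUR2 and lies beside Abcc9, averaged 9.77 ± 1.19 FPKM (SD, n = 3) in wild type and 9.62 ± 0.313 FPKM (SD, n = 3) in NICD2. Its groups overlapped (limma adjusted p = 0.948).

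**Figure D4:**
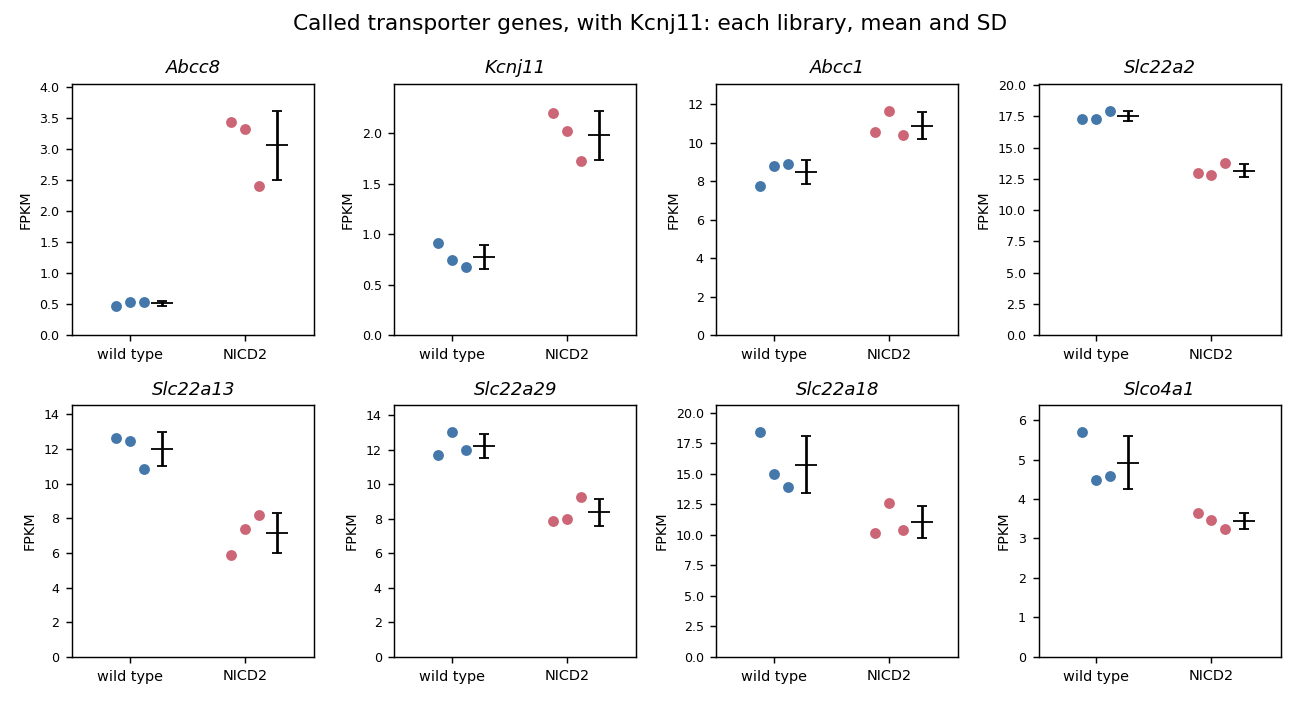
FPKM in each library for the 7 called transporter genes and Kcnj11, with 1 point per library and the mean and SD of each group beside the points. The groups do not overlap in any panel, and Abcc8 shows the widest separation, from 0.47 to 0.54 FPKM in wild type to 2.41 to 3.43 FPKM in NICD2.

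Many of the genes lie side by side. With gaps of up to 500000 bases, 34 of the genes fell into 10 clusters, of which 4 held 1 called member and 0 held more. At least 2 members were tested in 4 of the 10 clusters. On chromosome 19, Slc22a29 was called among 8 genes, and Slc22a8 and Slc22a6 beside each other had log2 fold changes of -0.18 and 0.14. On chromosome 6, 0 of the 3 tested of 7 genes were called, and Slco1a6 at 12.3 FPKM in wild type lay beside Slco1a5 at 0.04 FPKM. On chromosome 9, Slc22a13 at 12 FPKM in wild type overlapped Slc22a14 at 0.29 FPKM. On chromosome 7, Abcc8 was higher in NICD2 and Abcc6 was too low to test, while Kcnj11, which is not a member, lies beside Abcc8 and was also higher.

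**Figure D5:**
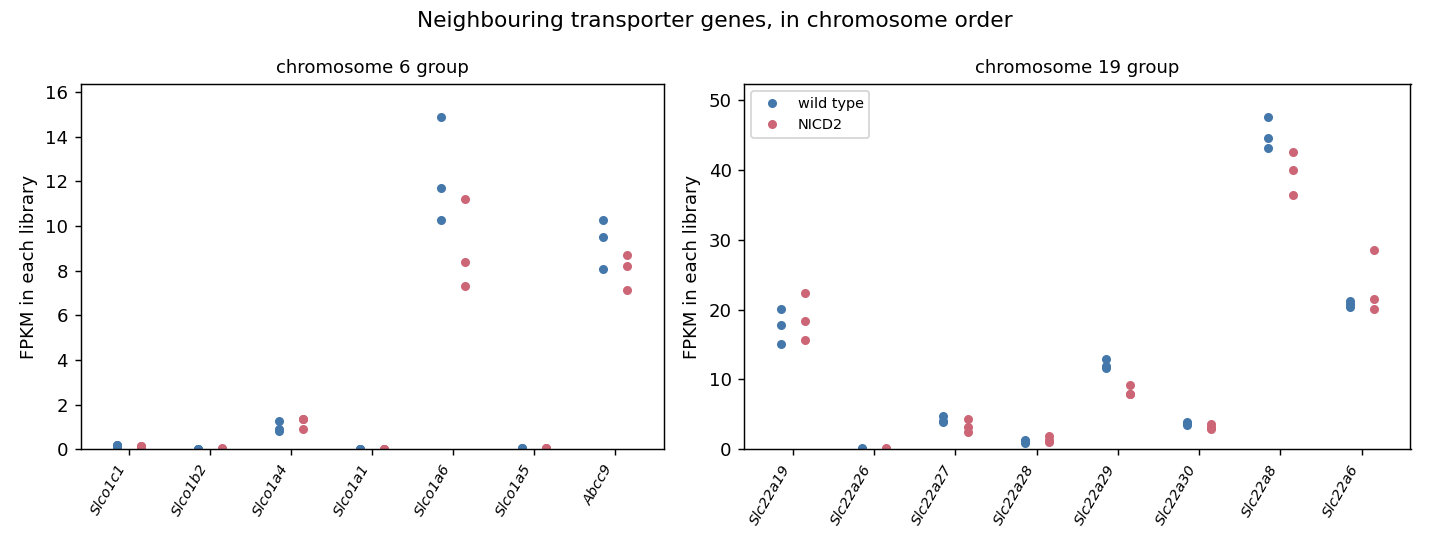
FPKM in each library for transporter genes in chromosome order within the groups on chromosomes 6 and 19, with 1 point per library. Slc22a29 separates by group while Slc22a28 before it does not, and levels differ widely between adjacent genes.

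Genes that work with these transporters were read from the same fit. Of 28 partner transporters and scaffold proteins, 22 were tested, with 2 higher and 0 lower, beside 4.93% and 3.86% of all genes tested. Their median log2 fold change was 0.03. At an unadjusted limma p under 0.05, 3 were higher and 5 lower, beside 12.4% and 12.6% of all genes tested. Slc2a9, a basolateral urate transporter, read 2.90, 3.56 and 3.28 FPKM in wild type and 10.93, 6.78 and 8.03 FPKM in NICD2. The groups were far apart (1.15 ± 0.15, limma adjusted p = 0.00223). Slc9a3r1, the scaffold NHERF1 of the apical membrane, averaged 61.6 ± 3.28 FPKM (SD, n = 3) in wild type and 85.0 ± 9.04 FPKM (SD, n = 3) in NICD2 (0.46 ± 0.08, limma adjusted p = 0.0129), and its call was gone when wild type replicate 2 or 3 was left out (adjusted p up to 0.0559) or with the libraries that held adrenal transcripts alone (adjusted p = 0.106). Pdzk1, the scaffold that binds urate and carnitine transporters, averaged 107.8 ± 6.43 FPKM (SD, n = 3) and 92.2 ± 3.35 FPKM (SD, n = 3) and was not called (adjusted p = 0.0757).

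Of 20 regulators of transporter transcription, all tested, 2 were lower and 0 were higher, beside 3.86% and 4.93% of all genes tested. Their median log2 fold change was -0.09. At an unadjusted limma p under 0.05, 2 were higher and 6 lower, beside 12.4% and 12.6% of all genes tested. Maf, a transcription factor of the proximal tubule, averaged 50.1 ± 1.46 FPKM (SD, n = 3) in wild type and 36.1 ± 4.08 FPKM (SD, n = 3) in NICD2 (-0.47 ± 0.08, limma adjusted p = 0.0111). With the 4 libraries that held adrenal transcripts alone, Maf was not called (adjusted p = 0.0858). Ppargc1a, a coactivator of mitochondrial genes, averaged 14.0 ± 1.46 FPKM (SD, n = 3) and 10.1 ± 0.687 FPKM (SD, n = 3) (-0.43 ± 0.09, limma adjusted p = 0.0206), a call that did not survive leaving out wild type replicate 2, wild type replicate 3, NICD2 replicate 1 or NICD2 replicate 2 (adjusted p up to 0.0886) or using the libraries with adrenal transcripts alone (adjusted p = 0.155). Hnf4a, an activator of many of these genes, averaged 37.4 ± 4.21 FPKM (SD, n = 3) in wild type and 34.4 ± 1.0 FPKM (SD, n = 3) in NICD2 and was not called (adjusted p = 0.459).

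The authors' deposited table holds its own comparison, made with DEGseq. In it, 33 of the 62 members with a q-value had a q-value under 0.05, 12 higher and 21 lower, beside 48.9% of all genes with a q-value in the authors' deposited table. The share of all genes in each direction was not computed for that comparison. Each of the 7 genes that passed limma also passed there, in the same direction. Both comparisons rest on the same 6 libraries, so this is no independent check. In the authors' deposited table the log2 fold change of Abcc8 was 2.57, larger than the 1.41 found on log2(FPKM + 1).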

How the data were processed

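Kidneys of mice at postnatal day 3 were frozen, RNA was extracted with Trizol, and an Illumina TruSeq kit turned 1 ug per sample into libraries, per the labels' protocols. The deposited table gives FPKM per gene and library, computed by the authors, with their log2 fold change and DEGseq q-value, per the file headers. Bowtie 0.12.2 and build mm8 are named in the submitters' processing notes, while positions in the deposited table match GRCm38. For the FPKM program, strand use and shared reads, details were not given in the sources used here. The deposited transcript length, listed as another column per the file headers, served to estimate depth: with 120 bases taken off each length, 88.0% to 90.6% of low values came out as whole fragments within 0.15, against 30.0% by chance. The 27 pairwise columns of fold changes were not used.

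Groups came from the sample labels. Log2(FPKM + 1) was tested with limma 3.58.1 (trend) in R 4.3.3, two-sided, for the 13765 genes that reached 1 FPKM in 3 or more of 6 libraries, with Benjamini-Hochberg adjustment at 0.05. No count model was used, since FPKM are not counts. The procedure was tested on simulated data. Alternatives were a pseudocount of 0.1, no filter, a mean of at least 5 FPKM, 2 scalings, a replicate block and each library left out. A term for adrenal transcripts and the 4 libraries holding them alone were added after seeing the data. Tables and figures used Python 3.11.15, pandas 2.3.3, scipy 1.17.1 and matplotlib 3.10.9. Shared 50-base stretches and exon overlaps came from GENCODE M21 transcripts, and promoters from RefSeq on GRCm38.p6, with 50 of 64 members matched. Values in each library are given for called members and for up to 4 further members of each role with the highest mean. A few genes and a motif search are not reported here, though the genes stay in the fit and the counts. The members and gene lists were chosen with earlier results of these data known.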

Additional observations from a re-analysis of the deposited data

How the results depend on the processing

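Of the 7 called transporter genes, Abcc8, Slc22a2, Slc22a13 and Slc22a29 kept the call in each of the 6 fits without 1 library. Those fits kept the filter of the main fit. None of the 7 changed direction in any of the 14 alternatives that tested it. Abcc8 and Slco4a1 were tested in 13 of the 14, as the stricter filter left both out. The count of members called higher, 2, went to 1 with no filter, the stricter filter, the term for adrenal transcripts and the libraries with adrenal transcripts only, and was 1 in each fit without 1 library. With the stricter filter the fall came from Abcc8 being left out and not from a lost call. The count of members called lower, 5, went to 3 with no filter and to 1 with the libraries with adrenal transcripts only, and ranged from 3 to 4 without 1 library. Partner transporters called higher, 2, went to 1 with those libraries and ranged from 1 to 3, and those called lower, 0, went to 1 with upper-quartile scaling and ranged from 0 to 2. Regulators called higher, 0, went to 2 with the adrenal term, and those called lower, 2, went to 0 with the libraries with adrenal transcripts only and ranged from 1 to 2. Proximal tubule markers called higher ranged from 0 to 1 and those called lower from 3 to 4. All genes called, 1210, fell to 555 with the libraries with adrenal transcripts only and ranged from 624 to 985 without 1 library. The cause of these changes was not tested beyond the loss of samples or genes that the alternatives make.

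Log2 fold changes reported here that changed sign belonged to genes not called. Over the fits without 1 library they ranged from -0.061 to 0.11 for Abcg2, -0.18 to 0.48 for Abcb1b, -0.0022 to 0.24 for Slc22a6, -0.045 to 0.20 for Slc22a19, -0.0012 to 0.23 for Slc22a28, -0.038 to 0.12 for Slc47a1 and -0.11 to 0.051 for Kcnj8. With the libraries with adrenal transcripts only, Slc22a6 went to -0.0012 and Slc47a1 to -0.037.

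The groups share replicate numbers, but samples with the same number did not deviate together, with correlations of -0.03, 0.06 and -0.05, and no sample correlated best with its own number. A fit with the replicate block gave 1 member higher, 4 lower and 1055 of all genes; the members that lost their call in it were Abcc1 (adjusted p = 0.0508) and Slc22a18 (adjusted p = 0.0606). Depth limits the 23 members under 1 FPKM, most of which were not tested.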
